A study of Mus musculus with 6 samples.

Results

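The 36 genes described here encode the machinery that copies DNA and the regulators that move a cell from G1 into S phase. They were listed by name, for the function of their products, and all 36 stood among the 20882 gene columns of the count tables. In G1, Cdc6 and Cdt1 help to load the ring-shaped Mcm helicase onto origins of replication. Cyclin E kinases and E2F transcription factors then open S phase, in which the helicase is switched on and polymerases copy both strands around the sliding clamp Pcna. In tissue leukocytes these RNAs are known as a mark of lymphocytes that divide, while mature neutrophils no longer divide.

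The cells were live CD45+ cells (leukocytes) sorted from the lungs of mice of a humanized PD-1 model, 6 to 8 weeks old, and their RNA was read cell by cell in droplets (10x Genomics Chromium). One group had an isotype treatment and the other a PD-1 agonist treatment, and both share the humanized PD-1 background. The title names neutrophilic asthma, but the sample labels used here give no challenge, dose or time, and nothing on how the humanized allele is driven. Per the labels, hashing antibodies tagged the 3 samples of a treatment before they were pooled, and about 50000 cells a group were meant to be read, while the tables hold 12448 and 13728 distinct barcodes. Hashtags were not used here. Tables of the same treatment shared 35.9% to 42.5% of the barcodes of the smaller table, and tables of different treatments shared 3 to 13 barcodes, so each treatment was counted as 1 sample. There is therefore no replicate check and no test. Treatment and library cannot be told apart, and every difference below is between these 2 libraries.

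Each barcode was kept once per treatment, and 11781 isotype and 12693 agonist cells had at least 500 expressed genes. Of these, 660 and 471 had more than 4000 genes, and 922 and 1147 were called doublets by Scrublet. Both kinds were kept. The median total was 2803 counts per isotype cell and 2381 per agonist cell. The cells formed 32 clusters, built without the 36 genes, the other cell cycle genes listed below and the histone genes. Marker lists named 24 clusters as T cell-like, NK cell-like and so on (the suffix is left out below), and 8 clusters of mostly doublet calls stayed unnamed. Clusters with fewer than 3 markers of a T cell subset are called by leading genes only. The T cells led by Igfbp4 and Tcf7 are also called so, although 3 markers of CD4 T cells were raised in them. No cluster was best matched by the list of erythroid markers or of epithelial, endothelial and stromal markers.

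Promoters of replication genes are textbook targets of E2F proteins, and 4 are shown here because these genes lie at different places in the comparison of the libraries below. RefSeq windows (build GRCm38.p6) of 300 bases, 250 before and 50 after the annotated start, were matched for 31 of the 36 genes, all but Gins1, Gins2, Ccne2, Pole and Mcm4. The E2F letters TTTCCCGC, TTTGGCGC, TTTCGCGC and TTTGCCGC were searched on both strands, with overlaps allowed. At least 1 of these forms stood in 12 of the 31 (38.71%), against 3.29% of 17492 protein-coding genes. The NF-Y letters CCAAT stood in 18 of the 31 (58.06%), against 42.32% of the genes, and the cell cycle homology letters TTTGAA in 3 of the 31 (9.68%), against 18.47%. The lines below hold the 120 bases before the start, 5′ to 3′ on the strand of the gene, with the E2F forms in capitals. They belong to the helicase subunit Mcm6 (chr1:128359706-128359825, minus strand), the clamp loader subunit Rfc3 (chr5:151651209-151651328, minus strand), the ribonucleotide reductase subunit Rrm2 (chr12:24708134-24708253, plus strand) and the histone mRNA binding protein Slbp (chr5:33652575-33652694, minus strand).
Mcm6: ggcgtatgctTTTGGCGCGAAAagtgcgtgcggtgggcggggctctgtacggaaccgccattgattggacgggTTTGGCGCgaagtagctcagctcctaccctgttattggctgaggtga
Rfc3: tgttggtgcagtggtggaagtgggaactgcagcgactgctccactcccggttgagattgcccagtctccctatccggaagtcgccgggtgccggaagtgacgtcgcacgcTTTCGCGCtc
Rrm2: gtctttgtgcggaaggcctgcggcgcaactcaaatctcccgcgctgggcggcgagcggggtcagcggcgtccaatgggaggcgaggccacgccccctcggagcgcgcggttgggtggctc
Slbp: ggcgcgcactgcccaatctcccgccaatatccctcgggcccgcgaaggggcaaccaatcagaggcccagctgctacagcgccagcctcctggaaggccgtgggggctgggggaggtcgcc
Mcm6 held 3 matches, 102, 98 and 39 bases before the start, and the first and second overlap and are capitalised as 1 stretch. Rfc3 held 1 match 2 bases before the start and 1 after it. Rrm2 and Slbp held none of these letters in the window. A match describes letters only and is no sign of binding.

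The first question was which leukocytes carried these RNAs. To compare cells of unequal depth, each cell was thinned to 1000 counts, and a cell with at least 5 distinct members among them is called member-rich. Thinning left out 547 isotype and 764 agonist cells with fewer counts. Of the rest, 838 of 23163, or 3.62% (exact 95% interval 3.38 to 3.87) were member-rich. T cell clusters held 47.5% of the member-rich cells and 20.1% of all thinned cells, and NK cell clusters held 32.1% and 10.9%. The unnamed clusters held 10.4% and 7.29%. Doublet calls made up 70.5% of their rich isotype cells and 72.1% of their rich agonist cells.

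Rich cells were most frequent among CD8 T cells led by Gzmk and Gzmb, which encode granzymes of killer lymphocytes, with 63 of 233 (27.04%, 21.4 to 33.2). NK cells led by Car2 and Xcl1 followed with 176 of 913 (19.3%, 16.8 to 21.99) and gamma-delta T cells with 93 of 529 (17.6%, 14.4 to 21.1). T cells led by Cxcr6 and Icos had 104 of 851 (12.2%, 10.1 to 14.6). Type 2 innate lymphoid cells had 14 of 150 (9.33%, 5.20 to 15.2), regulatory T cells 25 of 295 (8.47%, 5.56 to 12.3), T cells led by Cd8a and Dapl1 110 of 1666 (6.60%, 5.46 to 7.90) and NK cells led by Prf1 and Ccl5 93 of 1619 (5.74%, 4.66 to 6.99). The interval of each of these clusters overlaps that of the next in this order. T cells led by Igfbp4 and Tcf7, genes typical of resting T cells, lay far lower with 3 of 1084 (0.277%, 0.0571 to 0.807). Tcf7 was also among the leading genes of the T cells led by Cd8a and Dapl1.

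Neutrophils and classical monocytes held almost no rich cells. They were not alone: interstitial macrophages had 12 of 3279, nonclassical monocytes 1 of 646 and migratory dendritic cells 0 of 331. No neutrophil led by Retnlg and Csf3r was rich among 2463, which allows a share of up to 3 counts of that total, or 0.122%, and no classical monocyte among 777, which allows up to 0.386%. All neutrophil clusters together held 1 rich cell of 3964, and Scrublet called it a doublet. Neutrophils serve as the background here; their median totals of 1578 and 1445.5 counts were below the 2822 and 2457.5 of T cells, but all cells in these shares were thinned to the same depth. Classical monocytes, at medians of 5601.5 and 5047, were deeper than T cells. Conventional dendritic cells, which take up antigen for T cells, had 33 of 888 (3.72%, 2.57 to 5.18). Without thinning, 14.97% of isotype and 11.2% of agonist cells held at least 5 members, 22.6% and 16.9% of T cells, and 0.461% and 0.252% of neutrophils.

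**Figure D1:**
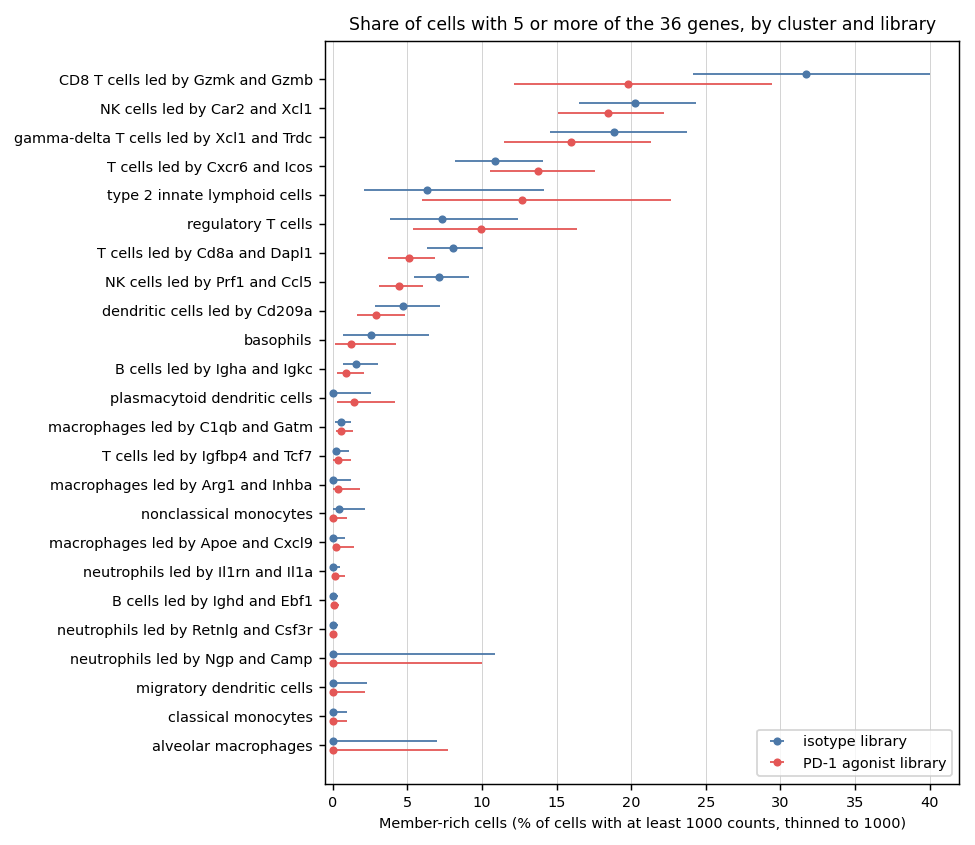
Share of member-rich cells (at least 5 of the 36 genes among 1000 thinned counts) on the x axis for the 24 named clusters, isotype and PD-1 agonist library side by side, with exact 95% binomial intervals that cover counting error only. The lymphocyte clusters led by Gzmk, Car2 and Trdc have the highest shares. Classical monocytes and the neutrophils led by Retnlg are among the 5 clusters at 0 in both libraries.

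Summed over the 36 genes, the level was 2978 CPM (a count after every library is brought to the same total) in NK cells, 2662 in T cells, 1986 in type 2 innate lymphoid cells and 1245 in conventional dendritic cells, over both libraries. B cells stood at 891 CPM, interstitial macrophages at 476, classical monocytes at 278 and neutrophils at 229. Without cells above 4000 genes, the dendritic cell level was 745 CPM. In a summed level, more cells with these RNAs and more RNA per cell cannot be told apart.

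How many single members followed this order of classes was not counted. Rrm2, the subunit that limits the making of DNA building blocks, stood at 238 (209.6 to 269) CPM in the Gzmk CD8 T cells, 141 (132 to 152) in the Car2 NK cells and 2.15 (0.982 to 4.08) in the Retnlg neutrophils, where it had 9 counts. Pclaf, which binds the clamp Pcna, stood at 557 (513 to 603) CPM, 416 (399 to 434) and 3.10 (1.65 to 5.30) in the same clusters. The histone chaperone subunit gene Chaf1a and Ung, which removes uracil from DNA, had 0 counts in those neutrophils. All 36 members but Cdt1 and Pold1 had their highest level in a T or NK cell cluster.

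Some members were also seen where almost no cell was rich. Pcna stood at 50.3 (43.8 to 57.6) CPM in the Retnlg neutrophils, against 569 in the Gzmk CD8 T cells, a fold of 11.3. Slbp, whose product binds the stem-loop that ends histone mRNAs, stood at 28.4 (23.5 to 33.97) and 147 CPM, a fold of 5.19, while Pclaf had a fold of 179. Pcna shares 37.97% of its 31-base words with other annotated transcripts, mainly its copy Pcna-ps2, so its counts are uncertain to that extent.

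Cdt1 and Pold1 were highest in B cells. Cdt1, the licensing factor, stood at 126 (116 to 137) CPM in B cells led by Ighd and Ebf1, above the 77.9 (70.6 to 85.6) of the Car2 NK cells, although 1 of 2413 of those B cells was member-rich. Pold1, the catalytic subunit of polymerase delta, stood at 80.3 (70.6 to 90.9) CPM in B cells led by Igha and Igkc and at 58.98 (52.2 to 66.4) in the Ighd B cells. It was at 54.3 (45.6 to 64.1) in migratory dendritic cells, of which 0 of 331 were rich, and at 46.6 (41.1 to 52.7) in the Car2 NK cells.

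**Figure D2:**
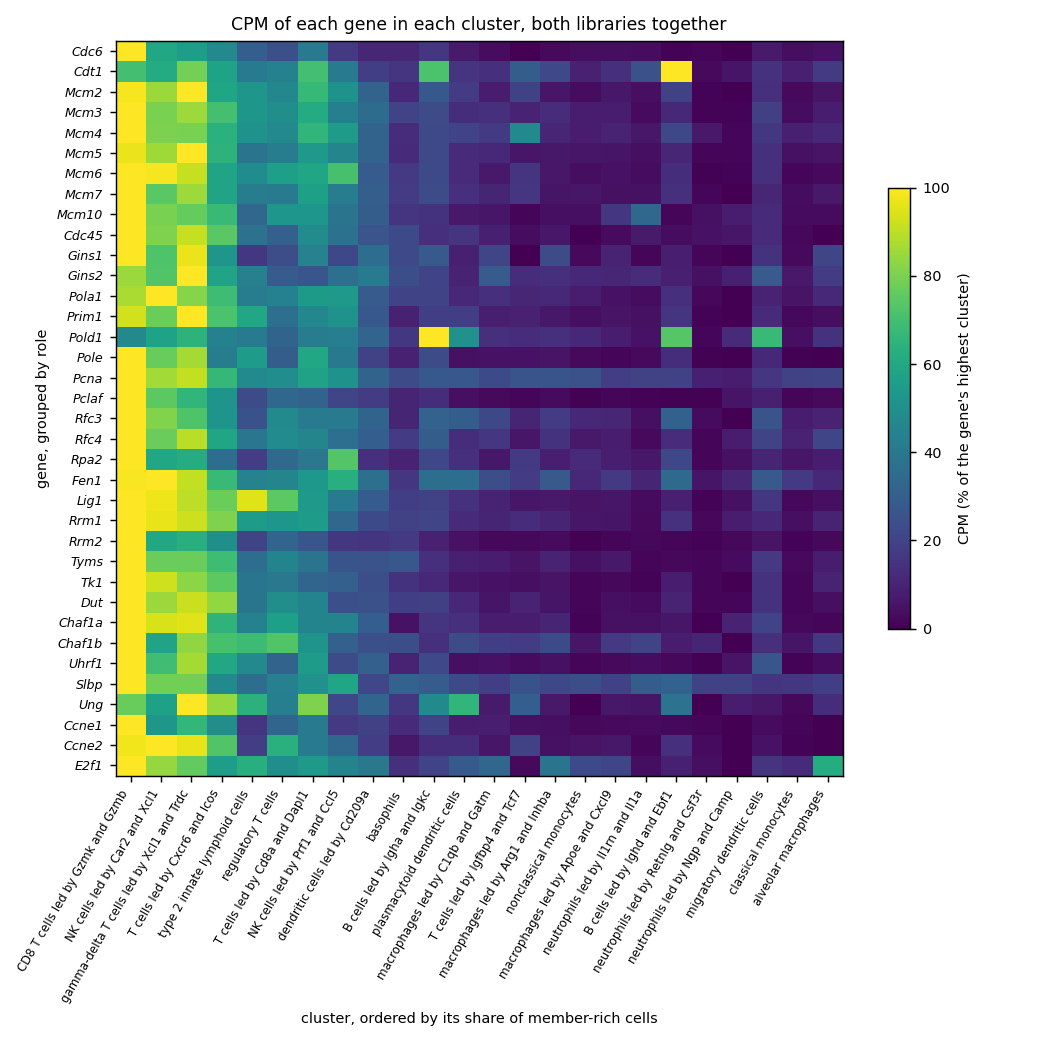
CPM of each of the 36 genes, grouped by role, in each named cluster, both libraries together, shown relative to the gene's highest cluster. Most genes are bright in the T and NK cell clusters with many rich cells, and Cdt1 and Pold1 are brightest in B cell clusters.

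The members with the highest CPM differed between classes. Pcna and Pclaf led in T cells (359.7 and 237 CPM), in NK cells (402 and 285) and in conventional dendritic cells (182 and 98.3). B cells had Pcna and Cdt1 at 129 and 112 CPM. Pcna and Slbp led in neutrophils (76.5 and 34.8) and in interstitial macrophages (125 and 28.7). Divided by the length of the longest annotated transcript, the T cell levels in CPM per kilobase were 237 for Pcna, 100.01 for Dut, which clears dUTP, and 93.7 for Pclaf. Whether counts grow with transcript length in these droplet data was not tested.

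How far each gene kept to cells with the rest of the machinery was read with the gene itself left out of the choice of cells. Cells with at least 5 of the other 35 members made up 2.996% to 3.59% of the thinned cells and held a median of 37.4% of a member's counts. These counts were taken before thinning. Member-rich cells were deeper, with a median total of 7848.5 counts against 2750 with 1 to 4 members and 2587.5 with none. The share of all counts in such cells was not computed, so the part of depth in 37.4% was not tested. The licensing factor Cdc6 was the most concentrated, with 55.7% of its counts in such cells. Rrm2 (53.1%), the cyclin E gene Ccne2 (52.03%), Uhrf1, which helps to copy DNA methylation (50.1%), the other cyclin E gene Ccne1 (49.3%) and thymidine kinase Tk1 (48.3%) came next. A count of Cdc6 was seen in 6.29% of cells rich in the others and in 0.104% of cells with none of them. For Pclaf, with 46.5% of its counts there, these shares were 46.2% and 0.453%.

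The least concentrated was Pold1 (21.6%), followed by Cdt1 (22.3%), Slbp (24.5%), Rpa2 of the single-strand binding complex (25.4%), Pcna (27.1%) and the helicase subunit gene Mcm4 (27.4%). Pcna had a count in 58.6% of cells rich in the others and in 9.62% of cells with none, and Cdt1 in 13.01% and 3.46%. The other members lay between 28.3% (Fen1) and 47.4% (Cdc45).

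Mitosis genes did not choose the rich cells, and they marked many of them. At least 3 of 24 mitosis genes were found in 340 of 838 member-rich cells (40.6%, 37.2 to 43.99), in 4.24% of 8915 cells with 1 to 4 members and in 0.410% of 13410 cells with none. The median total before thinning was 7848.5 counts in rich cells, 2750 in cells with 1 to 4 members and 2587.5 in cells with none, and 22.1%, 5.65% and 3.30% of them had more than 4000 genes. Doublet calls were 10.1%, 10.1% and 7.82%. The part of depth in these shares was not tested.

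Among cells rich in the other members, those with at least 3 mitosis genes were set beside those with none. Of the 5 nucleotide supply genes, 4 were higher in the first: the log2 ratio was 2.30 (0.98 to 3.99) for Tk1, 2.24 (1.47 to 3.12) for Rrm2, 2.16 (1.11 to 3.43) for thymidylate synthase Tyms and 1.26 (0.72 to 1.85) for Rrm1, the large ribonucleotide reductase subunit. The interval of the fifth, Dut, spanned 0 (0.34, -0.13 to 0.83). Pclaf was at 1.88 (1.44 to 2.34) and Ccne1 at 1.94 (0.43 to 3.90). Cells without and with mitosis genes gave 4 and 30 counts of Ccne1, and 5 and 47 of Tk1. Intervals also lay above 0 for Cdc45 at 1.45 (0.06 to 3.19), Chaf1a at 1.28 (0.08 to 2.70) and E2f1 at 1.15 (0.09 to 2.38). The same held for Pcna at 0.97 (0.60 to 1.35) and Cdt1 at 0.95 (0.05 to 1.95). The share over all genes was not computed for this comparison. Lower were Ung at -3.23 (-5.67 to -1.39), from 14 counts in 168 cells without and 3 counts in 338 cells with mitosis genes, and the helicase subunit gene Mcm5 at -0.82 (-1.32 to -0.32). The interval of Cdc6 spanned 0 (-0.01, -1.07 to 1.12), which does not show equal levels. These genes were chosen after their values were seen.

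**Figure D3:**
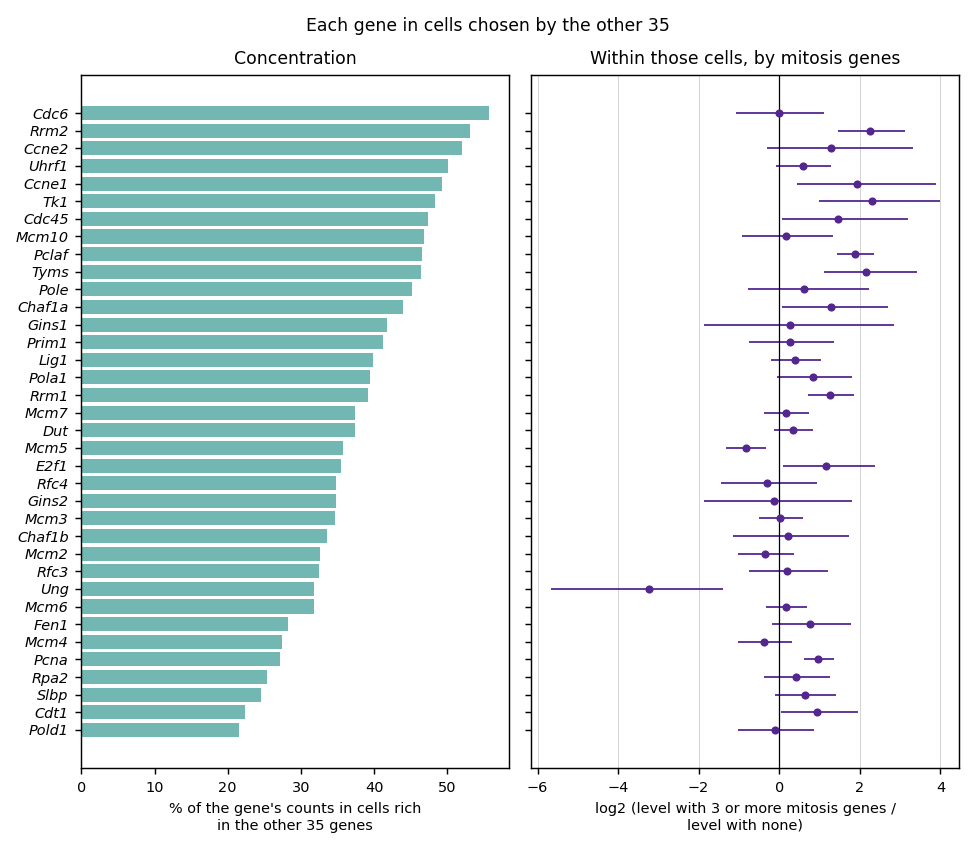
Left, percent of each gene's counts before thinning that lie in cells with at least 5 of the other 35 genes. Right, log2 ratio of its level between such cells with 3 or more mitosis genes and those with none, with exact 95% intervals (counting error only). Shares run from 21.6% for Pold1 to 55.7% for Cdc6, and Tk1, Rrm2 and Tyms have the highest ratios.

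Related genes outside the 36 were read in the same cells. Of 36 other replication factors with at least 20 counts, 33 were higher in member-rich cells than in cells with no member, beyond the counting interval, and 1 was lower. Over 12743 genes with at least 20 counts, the members left out, 27.5% were higher and 18.1% lower. Claspin (Clspn), a checkpoint adaptor, was at a log2 ratio of 8.27 (7.11 to 9.75), and Pold4, the small subunit of polymerase delta, at -1.69 (-2.43 to -1.04). Of 20 other nucleotide, chromatin and repair genes, 18 were higher and 1 lower, the latter being Samhd1, which degrades dNTPs, at -2.17 (-2.40 to -1.95). All 24 mitosis genes and 15 of 18 other G1/S regulators were higher. Of 10 cell cycle brakes, 3 were higher and 5 lower. The brake gene Cdkn2b is not among the 10, since it had 0 counts in rich cells and 25 in cells with no member, which gives no ratio. The antiproliferative gene Btg2 was at -1.97 (-2.16 to -1.78) and the CDK inhibitor gene Cdkn2c at 3.60 (2.91 to 4.27). The genes named here were chosen after their values were seen, and the cells compared also differ in cell type.

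The second question was how the libraries differed, with ratios given as log2 of agonist over isotype. The isotype library held more of these RNAs. The summed level was 1392 and 1191 CPM in the isotype and agonist library, a ratio of -0.22 (-0.24 to -0.21). By table it was 1433, 1375 and 1385 CPM for isotype and 1216, 1207 and 1155 for agonist. The tables of the treatments did not overlap, but tables of 1 treatment share cells and are not replicates. The summed mitosis genes stood at 744 and 554 CPM.

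The median ratio of the 36 members was -0.26, against -0.01 over 15902 genes with at least 50 counts. At least 1.2-fold lower in the agonist library were 17 of 36 members, against 10.8% of all genes, and 1 was at least 1.2-fold higher, against 14.3%. The counting interval lay below 0 for 28 members, against 20.9% of genes, and above 0 for 1, against 19.2%. Tables of the treatments did not overlap, with the agonist lower, for 28 members, against 25.2% of genes, and with the agonist higher for 1, against 21.8%. With clusters given the same weight in both libraries, an alternative added after seeing the data, the median was -0.18 and 9 members were at least 1.2-fold lower.

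**Figure D4:**
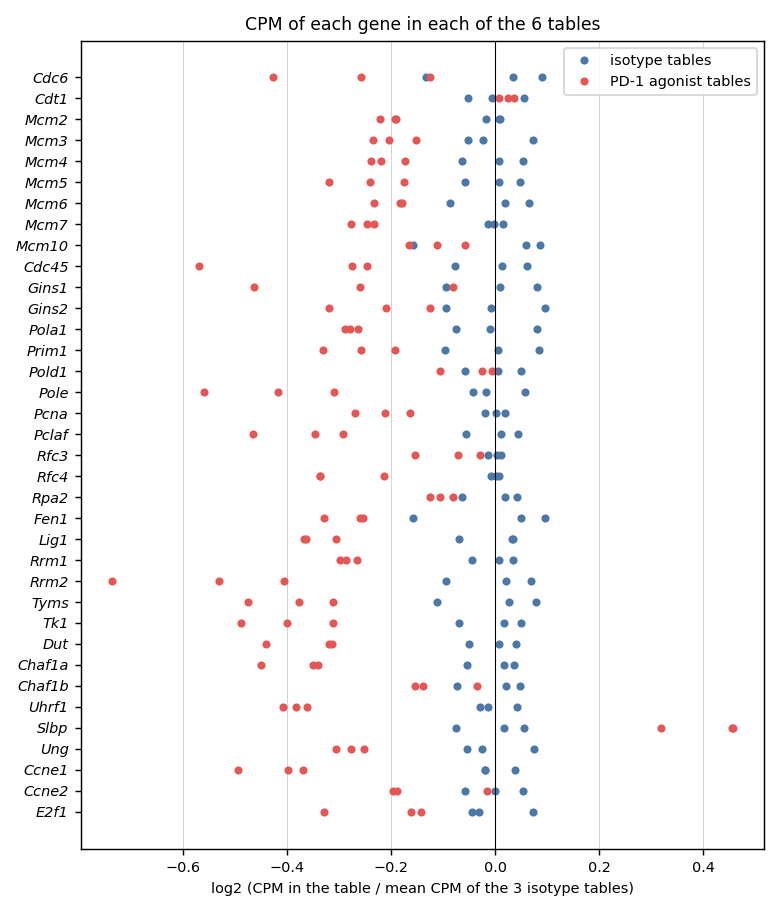
CPM of each of the 36 genes in each of the 6 tables, as log2 over the mean of the isotype tables. The agonist tables lie below all isotype tables in 28 genes, above them in 1 (Slbp) and among them in 7, and tables of the same treatment share cells.

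Among the 8 origin licensing genes the median ratio was -0.22. The genes of the 6-part helicase ring all had intervals below 0: Mcm7 was at -0.30 (-0.38 to -0.21), Mcm5 at -0.26 (-0.33 to -0.18), Mcm4 at -0.23 (-0.32 to -0.15), Mcm6 at -0.21 (-0.27 to -0.14), Mcm3 at -0.17 (-0.24 to -0.09) and Mcm2 at -0.17 (-0.25 to -0.08). Mcm7 shares 47.65% of its 31-base words with other transcripts. Cdc6 stood at 11.96, 11.5 and 10.2 CPM in the isotype tables and 9.39, 10.3 and 8.36 in the agonist tables, which overlap, and its ratio was -0.26 (-0.44 to -0.08). Cdt1 stood at 45.97, 42.7 and 44.1 CPM in the isotype tables and 44.5, 45.04 and 45.4 in the agonist tables, with full overlap and a ratio of 0.08 (-0.0038 to 0.16).

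Helicase activation genes had few counts. Cdc45, a cofactor of the helicase, was at -0.28 (-0.46 to -0.10). Intervals spanned 0 for Mcm10, which helps to switch the helicase on (-0.13, -0.32 to 0.07), and for the GINS complex genes Gins1 (-0.18, -0.43 to 0.08) and Gins2 (-0.12, -0.32 to 0.08). By table, Mcm10 stood at 8.84, 8.996 and 7.60 CPM in the isotype tables and 7.85, 8.15 and 7.56 in the agonist tables, Gins1 at 5.37, 5.65 and 4.999 CPM in the isotype tables and 5.05, 4.46 and 3.87 in the agonist tables, and Gins2 at 9.26, 8.12 and 8.62 CPM in the isotype tables and 7.49, 7.95 and 6.94 in the agonist tables. The tables of the treatments overlap for Mcm10 and Gins1, and for Gins2 all agonist tables are lower. Gins1 had 286 and 228 counts, and a difference of the size of that of Mcm4 lies within its interval. Gins2 shares 70.49% of its words with other transcripts, and its exons overlap Gse1 on the opposite strand.

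Of the polymerases and primase, Pole, the leading strand polymerase, stood at 9.15, 9.81 and 9.31 CPM in the isotype tables and 6.39, 7.05 and 7.60 in the agonist tables. All agonist tables were lower, and the ratio was -0.45 (-0.65 to -0.24). Pola1, which starts new strands, was at -0.28 (-0.41 to -0.16) and the primase gene Prim1 at -0.22 (-0.37 to -0.07). Pold1 stood at 26.1, 24.2 and 25.4 CPM in the isotype tables and 24.8, 25.1 and 23.5 in the agonist tables, which overlap, and its ratio was -0.08 (-0.20 to 0.03).

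All 7 genes of the clamp, its loader and the lagging strand had intervals below 0. Pclaf stood at 116, 109 and 114 CPM in the isotype tables and 92.2, 88.8 and 81.7 in the agonist tables, with no overlap and a ratio of -0.39 (-0.45 to -0.33). Without cells above 4000 genes, Pclaf was at -0.29. Lig1, the ligase that joins lagging strand pieces, stood at 55.05, 55.1 and 51.3 CPM in the isotype tables and 41.7, 43.5 and 41.8 in the agonist tables, also with no overlap, and its ratio was -0.39 (-0.47 to -0.30). The flap nuclease gene Fen1 was at -0.28 (-0.40 to -0.17) and the clamp loader gene Rfc4 at -0.30 (-0.44 to -0.17). Nearer to 0 were Pcna at -0.19 (-0.23 to -0.15), Rfc3 at -0.12 (-0.25 to -0.0026) and Rpa2 at -0.11 (-0.20 to -0.02). Fen1 shares 82.2% of its words with other transcripts and Rfc4 12.49%.

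The nucleotide supply genes held the lowest ratio of the 36. Rrm2 stood at 46.6, 41.5 and 44.99 CPM in the isotype tables and 33.5, 30.7 and 26.6 in the agonist tables. No agonist table reached an isotype table, and the ratio was -0.52 (-0.62 to -0.43). Tyms, which makes dTMP, stood at 24.8, 21.7 and 23.9 CPM in the isotype tables and 18.1, 18.9 and 16.9 in the agonist tables, with no overlap and a ratio of -0.37 (-0.50 to -0.25). Dut stood at 94.3, 92.2 and 88.6 CPM in the isotype tables and 73.4, 73.7 and 67.6 in the agonist tables, again with no overlap, and its ratio was -0.33 (-0.39 to -0.27). Rrm1 was at -0.28 (-0.35 to -0.21) and Tk1 at -0.33 (-0.48 to -0.18). Without cells above 4000 genes, Rrm1 was at -0.20, Tk1 at -0.10 and Dut at -0.18. Rrm2 and Tyms share 16.46% and 17.54% of their words with other transcripts.

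Chromatin and repair genes lay on both sides. Uhrf1 stood at 37.5, 36.1 and 35.7 CPM in the isotype tables and 27.97, 28.4 and 27.5 in the agonist tables, with no overlap and a ratio of -0.38 (-0.48 to -0.28). The histone chaperone genes Chaf1a and Chaf1b were at -0.38 (-0.54 to -0.23) and -0.16 (-0.33 to 0.01), and Ung at -0.33 (-0.52 to -0.15). Chaf1b stood at 11.7, 11.9 and 10.97 CPM in the isotype tables and 10.4, 11.3 and 10.5 in the agonist tables, which overlap. Uhrf1 and Chaf1a share 29.39% and 48.6% of their words with other transcripts. Slbp stood at 43.6, 40.9 and 44.7 CPM in the isotype tables and 59.2, 53.8 and 59.03 in the agonist tables. Every agonist table was higher, and the ratio was 0.44 (0.36 to 0.52).

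The higher Slbp level was seen in many cell types. Of 21 named clusters with at least 50 counts of Slbp, 20 had a ratio above 0, in 13 of them with an interval above 0, and nonclassical monocytes were at -0.28. Its ratio was 0.52 (0.37 to 0.68) in T cells, 0.51 (0.33 to 0.70) in NK cells and 0.69 (0.33 to 1.05) in neutrophils. Rrm2, by contrast, had an interval below 0 in 5 of 11 clusters and above 0 in 0. The exons of Slbp overlap Gm10459 on the opposite strand, and 13.28% of its words are shared. The strand setting of the counting is not given in the sources used here, so the counts of Slbp are uncertain.

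Of the G1/S regulators, Ccne1 stood at 8.60, 8.59 and 8.94 CPM in the isotype tables and 6.75, 6.61 and 6.19 in the agonist tables, with no overlap and a ratio of -0.40 (-0.61 to -0.20). Ccne2 stood at 6.21, 6.46 and 6.71 CPM in the isotype tables and 6.39, 5.63 and 5.67 in the agonist tables, which overlap, and its ratio was -0.07 (-0.30 to 0.15). Without cells above 4000 genes it was 0.29. E2f1, a transcription factor that switches on replication genes, was at -0.26 (-0.39 to -0.12). Ccne2 shares 18.58% of its words with other transcripts. Exons of Cdc45, Lig1, Tk1 and Pole, too, overlap a gene on the opposite strand.

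**Figure D5:**
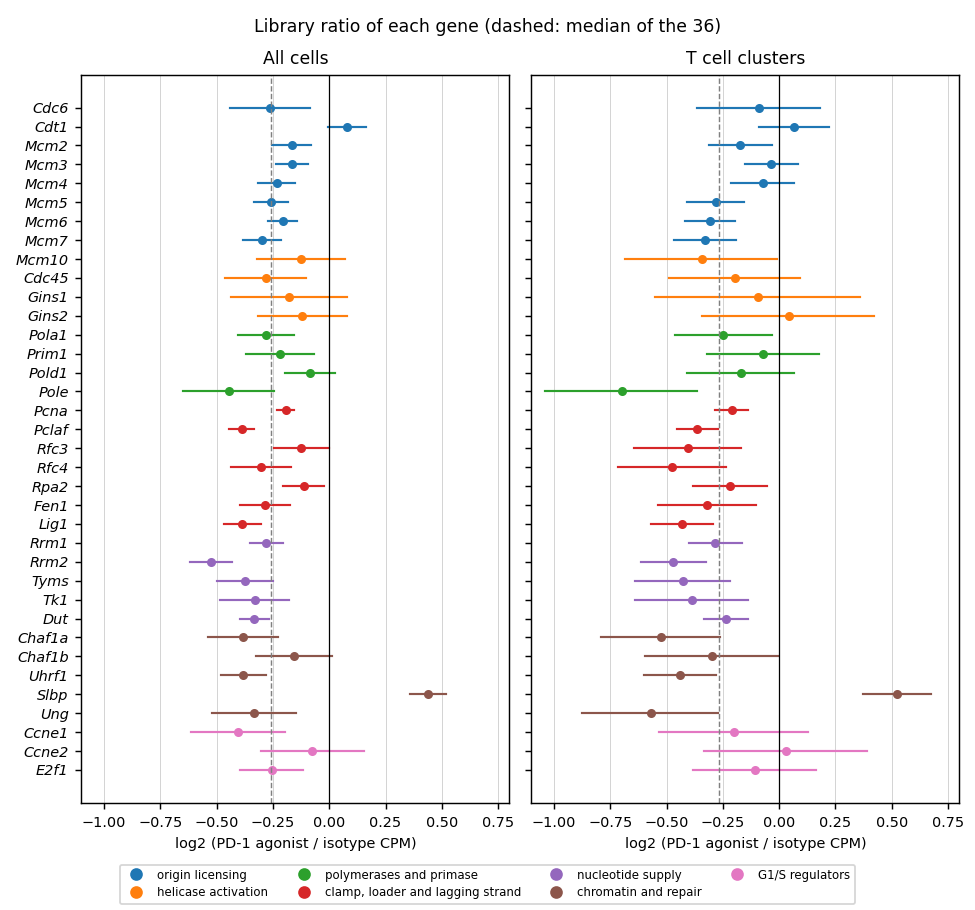
Log2 ratio of PD-1 agonist over isotype CPM for each of the 36 genes with its exact 95% interval (counting error only), in all cells and in T cell clusters, coloured by role. The median of the genes is -0.26 in all cells and -0.27 in T cells, and Slbp lies above 0 in both.

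The title of the study speaks of T cells, so the members were compared there next. In T cell clusters 18 of 36 members were at least 1.2-fold lower in the agonist library, against 13.8% of 11643 genes, and 1 was at least 1.2-fold higher, against 13.9%. The interval lay below 0 for 23 members, against 12.7% of genes, and above 0 for 1, against 12.2%. The summed members stood at 2853 and 2418 CPM and the summed mitosis genes at 1656 and 1223 CPM. Pole had the lowest ratio at -0.70 (-1.04 to -0.36), followed by Ung at -0.57 (-0.87 to -0.27), Chaf1a at -0.52 (-0.79 to -0.26), Rfc4 at -0.48 (-0.72 to -0.24) and Rrm2 at -0.47 (-0.61 to -0.33). Intervals of the licensing genes Mcm3 (-0.03, -0.15 to 0.08), Mcm4 (-0.07, -0.21 to 0.07) and Cdc6 (-0.09, -0.36 to 0.18) spanned 0, while Mcm6 was at -0.31 (-0.42 to -0.19). Without cells above 4000 genes, Mcm3 was at -0.16, Mcm2 at -0.34 (against -0.17) and Uhrf1 at -0.60 (against -0.44). With T cells taken by at least 2 counts of T cell receptor genes in place of clusters, the median was -0.19 and 9 members were at least 1.2-fold lower. With equal cluster weights 10 were.

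Single T cell clusters lay on both sides. In T cells led by Cd8a and Dapl1 the summed members stood at 2648 and 1986 CPM, and 26 of 35 members with at least 50 counts were at least 1.2-fold lower, against 20.3% of genes, and 2 higher, against 15.5%. Chaf1a had 109 and 34 counts there, a ratio of -1.32 (-1.92 to -0.75), and Pclaf was at -0.71 (-0.89 to -0.52) and Rrm2 at -0.80 (-1.12 to -0.49). In the Gzmk CD8 T cells the summed members stood at 5067 and 3928 CPM, and 18 of 26 members were at least 1.2-fold lower, against 29.6% of genes, and 0 higher, against 17.3%. Uhrf1 was at -1.11 (-1.71 to -0.54), while the interval of Pclaf spanned 0 (-0.03, -0.28 to 0.21). For Chaf1a, Rrm2 and Uhrf1, these were the lowest ratios of each gene over the named clusters with at least 50 counts of it.

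In T cells led by Cxcr6 and Icos the summed members stood at 2900.2 and 3029 CPM. There 3 of 35 members were at least 1.2-fold lower, against 18.9% of genes, and 6 higher, against 16.4%. Slbp was at 0.72 (0.38 to 1.07) and Cdt1 at 0.58 (0.25 to 0.92), while Mcm10 was at -0.78 (-1.49 to -0.10). Over the named clusters with at least 50 counts of the gene, this was the highest ratio of Cdt1 and the lowest of Mcm10. The summed mitosis genes stood at 1192 and 793 CPM in the Cd8a T cells, 2607 and 2747 in the Gzmk and 2375 and 2107 in the Cxcr6 T cells, and the median totals at 3059.5 and 2494, 3727 and 2894 and 3490 and 3172 counts. The difference between clusters, and the part of depth in it, was not tested.

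In NK cells 11 of 36 members were at least 1.2-fold lower, against 13.3% of 10189 genes, and 2 higher, against 14.5%. The interval lay below 0 for 14, against 8.91% of genes, and above 0 for 2, against 9.17%. The median was -0.17. Rrm2 was at -0.42 (-0.61 to -0.23), Pclaf at -0.25 (-0.36 to -0.14) and Ccne1 at -0.67 (-1.19 to -0.16). The members above 0 were Slbp and the other cyclin E gene, Ccne2, at 0.49 (0.03 to 0.95) from 73 and 96 counts.

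The share of member-rich cells was also lower in the agonist library. It was 4.10% and 3.16% in the isotype and agonist library, a log2 ratio of -0.38 (-0.58 to -0.18). By table it was 4.46%, 4.02% and 4.37% for isotype and 3.21%, 3.15% and 3.13% for agonist, with no overlap. In T cells it was 9.63% and 7.38% (-0.38, -0.68 to -0.09), and in NK cells 11.6% and 9.66%, where the interval spanned 0 (-0.27, -0.63 to 0.09). With T cells taken by at least 2 counts of T cell receptor genes, it was 9.20% and 7.90%. There the interval spanned 0 (-0.22, -0.47 to 0.02). With equal cluster weights the shares were 3.89% and 3.33% over all cells and 9.08% and 7.84% in T cells.

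By cluster, the Cd8a T cells had 8.04% and 5.12% rich cells, a log2 ratio of -0.65 (-1.24 to -0.07), and NK cells led by Prf1 and Ccl5 had 7.10% and 4.41%, a ratio of -0.69 (-1.33 to -0.06). The interval spanned 0 for the Gzmk CD8 T cells at 31.7% and 19.8% (-0.68, -1.56 to 0.14), the Car2 NK cells at 20.2% and 18.4%, the gamma-delta T cells at 18.9% and 15.9% and the Cxcr6 T cells at 10.9% and 13.8%. Dendritic cells led by Cd209a had 4.68% and 2.90%, but 6.35% and 8.65% when thinned to 1500 counts.

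Rich cells of the libraries were then set side by side. They held a mean of 6.66 distinct members in the isotype and 6.77 in the agonist library, and the ratio of their summed members was 0.01 (-0.06 to 0.07). That value is held in place by the choice of the cells. Mitosis genes, not used in the choice, gave 191 of 461 rich isotype cells (41.4%, 36.9 to 46.1) and 149 of 377 rich agonist cells (39.5%, 34.6 to 44.7) with at least 3 of them, and 44.4% and 45.8% in T cells. These intervals overlap. In cells with no to 4 members the ratio of the summed members was -0.17 (-0.22 to -0.12). These cells, too, were chosen by their members, so this ratio is partly set by the choice.

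Related genes outside the 36 were compared over all cells. Of all genes, 20.9% had intervals below 0 and 19.2% above. Of 37 other replication factors, 18 had intervals below 0 and 0 above (median -0.12), with the origin-firing kinase gene Cdc7 at -0.44 (-0.62 to -0.26) and Rpa3 of the single-strand binding complex at -0.32 (-0.41 to -0.24). Of 20 other nucleotide, chromatin and repair genes, 13 lay below and 1 above 0 (median -0.15). The histone chaperone gene Asf1b was at -0.26 (-0.38 to -0.14) and the salvage kinase gene Dck at 0.08 (0.02 to 0.14). Of 18 other G1/S regulators, 11 lay below and 0 above 0 (median -0.16), with the E2F partner Tfdp1 at -0.27 (-0.38 to -0.16) and E2f4 at -0.21 (-0.31 to -0.12). All 24 mitosis genes lay below 0 (median -0.41), among them Ccnb1, the mitotic cyclin B gene, at -0.66 (-0.87 to -0.46) and the topoisomerase gene Top2a at -0.50 (-0.55 to -0.46).

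Genes that hold cells out of the cycle gave a median of 0.05, with 7 of 13 intervals above 0 and 2 below, against 19.2% and 20.9% of all genes. The retinoblastoma gene Rb1 was at 0.24 (0.16 to 0.32) and the CDK inhibitor gene Cdkn2b at 0.62 (0.17 to 1.07) from 73 and 101 counts. Below 0 were Rbl1, a relative of Rb1, at -0.19 (-0.29 to -0.09) and Cdkn2c at -0.25 (-0.44 to -0.06), both of which were higher in member-rich cells.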

How the data were processed

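The study measured RNA in single lung leukocytes. Per the file headers, the authors deposited tables with 1 record per cell that hold estimated counts per gene, a total, a gene number and the share of mitochondrial counts in percent. The percent values deposited by the authors only describe cells (medians 1.21 and 1.28). Partek and mm10 are named per the submitters' processing notes, while the aligner, the counter and the strand setting were not given in the sources used here.

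Per treatment, each barcode was kept once (record with the highest total), with at least 500 genes. Counts were summed per library or cluster (54779226 and 49443917 in all), rounded and scaled with TMM factors (1.0008 and 0.9992; R 4.3.3, edgeR 4.0.16, used for scaling only). Intervals are exact 95% intervals (Clopper-Pearson for ratios and shares, Poisson for CPM) and measure counting error alone. Ratios need at least 50 counts over both libraries, and a call is a fold of 1.2, since 1 sample per treatment allows no test. The ratio script was tested on simulated data.

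Clusters (scanpy 1.11.5, 2000 variable genes, 30 components, 15 neighbours, Leiden resolution 1) left out 369 cell cycle and histone genes and needed 3 raised markers for a name. Clusters with over 50% Scrublet calls (expected rate 0.1, threshold 0.25) stayed unnamed, a rule set after seeing the clusters. Python 3.11.15 and scipy 1.17.1 were used. Shared sequence was counted as 31-base words over GENCODE transcripts (GRCm38), and 15 members with at least 10% shared words or an exon overlap are uncertain.

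The members and lists were chosen with earlier results of these data known. Values in full are given for the 6 members at each end of the share of counts in cells rich in the others and of the ratio bound nearest 0 (ties included), the 2 genes at each end of each other list and the 2 members of highest CPM per class. One gene that this rule names is not reported here. Alternatives covered scaling, count and gene minimums, the top cell, doublets, repeated records, thinning, the number of members, T cells by marker counts and each table left out.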

Additional observations from a re-analysis of the deposited data

Results flagged for a closer look

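In 5 of the 24 named clusters the summed members were higher in the agonist library, beyond the counting interval, while the library as a whole was at -0.22 (-0.24 to -0.21). In 10 named clusters the interval lay below 0, and in 9 it spanned 0. The difference between clusters was not tested. Values below are log2 ratios of agonist over isotype, and isotype is given first.

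T cells led by Cxcr6 and Icos were at 0.0627 (0.0108 to 0.1146). Rich cells held 47.5% and 60.8% of their member counts, and without them the ratio was -0.22 (-0.30 to -0.14). Type 2 innate lymphoid cells were at 0.18 (0.02 to 0.33), from 81 and 74 cells. Their top 3 cells held 33.8% and 26.3% of the member counts, and without rich cells the ratio was 0.0040 (-0.21 to 0.21).

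Macrophages led by Arg1 and Inhba were at 0.20 (0.09 to 0.30), and at 0.01 (-0.12 to 0.13) without doublet calls. Plasmacytoid dendritic cells, known for type I interferon, were at 0.67 (0.50 to 0.85). Doublet calls fell on 18 and 43 of their 144 and 211 cells and held 25.6% and 55.6% of the member counts, and without them the ratio was 0.20 (-0.02 to 0.42). Neutrophils led by Ngp and Camp, granule genes of immature neutrophils, were at 1.30 (0.55 to 2.12) from 19 and 68 counts in 32 and 35 cells, and their top 3 cells held 42.1% and 61.8% of these. Settings without rich cells or doublet calls in single clusters were chosen after seeing the data. Ratios in these settings used totals without TMM factors, unlike the ratios beside them. In the Ngp neutrophils, with 0 rich cells to remove, the ratio without rich cells was 1.35 in place of 1.30. Rich cells are chosen by the members, so a ratio without them is partly set by that choice.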

How the results depend on the processing

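No paired analysis was possible because the 3 tables of a treatment share cells and form 1 sample. Over the alternatives run, the median ratio of the members ranged from -0.28 to -0.18 over all cells (-0.28 to -0.22 with each table left out) and from -0.29 to -0.19 in T cells (-0.27 to -0.24). The log2 ratio of the share of member-rich cells ranged from -0.43 to -0.22 over all cells (-0.43 to -0.34) and from -0.51 to -0.21 in T cells (-0.48 to -0.32). None of these changed sign. The number of members at least 1.2-fold lower over all cells was 15 to 19 with each table left out, 12 with at most 4000 genes, 14 with at least 1000 genes and 9 with equal cluster weights, against 17. Without doublet calls, the summed members were at 199 CPM in neutrophils, 862 in B cells, 455 in interstitial macrophages and 2213 in type 2 innate lymphoid cells. With at most 4000 genes, they were at 835 CPM in B cells, 2157 in T cells, 2599.8 in NK cells, 745 in conventional dendritic cells and 398 in interstitial macrophages. With at least 8 other members, which leaves fewer cells, the median share of a member's counts in such cells was 9.53%. The share of rich dendritic cells had a log2 ratio of 0.17 without the second isotype table. The cause of these changes was not tested. Equal cluster weights and the members with little shared sequence were alternatives chosen after seeing the data. Depth limits genes of few counts: Gins1 had 286 and 228 counts and an interval of -0.43 to 0.08.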
